A study of Mus musculus with 17 samples.

Results

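The genes of the NF-kappaB pathway examined here were those for its 5 subunits, Nfkb1, Nfkb2, Rel, Rela and Relb, and those for 2 of its feedback inhibitors, Nfkbia and Tnfaip3. A region was taken as a member when 1 of these 7 genes was named in the deposited annotation as the gene of the nearest transcript or of the nearest transcription start. This gave 73 of the 66177 accessible regions in the series, 44 at the subunit genes and 29 at the inhibitor genes. Nfkb1 had 26 of them, Tnfaip3 had 16, Nfkbia had 13, Rel had 10, Relb had 4, and Nfkb2 and Rela had 2 each. Assignment by nearness does not say which gene a region acts on, and some regions lay in or beside a neighbor: 3 of the Nfkb1 regions had Manba as the nearest transcript. The Rel regions 48.2 kb upstream and 43.1 kb downstream had Papolg and Pus10. The Nfkbia regions 39.3 kb and 45.3 kb downstream had Psma6.

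NF-kappaB factors are dimers of Rel homology proteins. Rela, Rel (c-Rel) and Relb carry a transactivation domain, whereas Nfkb1 and Nfkb2 encode the precursors p105 and p100 that are processed to p50 and p52. In resting cells the dimers are held in the cytoplasm by IkB proteins such as IkB-alpha, the product of Nfkbia, which is degraded after signals from the B cell receptor, CD40 or Toll-like receptors. Nfkbia and Tnfaip3, which encodes the ubiquitin-editing enzyme A20, are themselves induced by NF-kappaB and shut the response down. The pathway is known for its part in B cell survival, the germinal center reaction and plasma cell formation.

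The regions were mapped with ATAC-seq, in which the Tn5 transposase inserts adapters into open DNA. The assay was run on 3 B-lineage populations of mice that were Dnmt3-sufficient (C) or Dnmt3-deficient (KO), to ask how loss of the de novo DNA methyltransferases alters B cell differentiation. The C mice were Dnmt3afl/fl Dnmt3bfl/fl without Cre and the KO mice Dnmt3afl/fl Dnmt3bfl/fl with 1 copy of a Cre, both on the strain labeled B6;129S4-Dnmt3atm3.1Enl Dnmt3btm5.1Enl/Mmnc and 8 to 12 weeks old at the start. Both floxed genes were therefore carried by the controls too, and Cre, which acted in the B lineage, was carried by the KO mice only. Naive B cells (nB, B220+ GL7- Fas-) were sorted from lymph nodes of naive male mice (3 C and 2 KO, 1 mouse each). PE-specific germinal center B cells (GCB, B220+ GL7+ Fas+ PE+) came from lymph nodes 30 days after immunization with phycoerythrin (PE) in complete Freund's adjuvant (2 C and 4 KO pools of 2 mice, pools named for either sex). CD138+ bone marrow plasma cells (BMPC) came from female mice 30 days after the same immunization (3 C and 2 KO, 1 mouse each). Cell type, organ, immunization and sex thus varied together, and their parts in a difference between cell types cannot be told apart. Values are RPPM, the reads in a region scaled to a fixed total of reads in all regions of that library. A library averages over its cells, so that fewer cells with an open region and a less open region in every cell cannot be told apart.

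The nB libraries held 4104875 to 6079018 reads in regions, the GCB libraries 907959 to 2280954 and the BMPC libraries 5357687 to 8232313, so that 3 reads corresponded to at most 0.731 RPPM in nB, 3.30 in GCB and 0.560 in BMPC, and GCB values carried the largest counting error. Mitochondrial regions took 7.43% to 10.1% of the GCB reads and 2.56% to 4.59% of the others. Start-site regions of cell type markers followed the labels for Fcer2a in nB (mean 42.4 RPPM in C, against 14.3 in GCB and 1.2 in BMPC) and Tnfrsf17 in BMPC (20.0, against 0.392 in nB and 1.35 in GCB). Summed over 5 germinal center markers, GCB libraries (159 to 200 RPPM) overlapped BMPC libraries (176 to 194 RPPM). None of the 6 T and NK cell markers had an accessible start site, and of 6 myeloid markers only Itgam had one, at 0.560 to 5.31 RPPM. Of 3 erythroid and megakaryocyte markers only Itga2b had one, and it was higher in BMPC C (19.0 ± 1.99 RPPM) than in nB C (11.3 ± 0.879), by 0.70 on the log2 scale (SE 0.17, limma adjusted p = 0.00097). Its part in the differences between nB and BMPC was not tested. The deletion of Dnmt3a and Dnmt3b is not read out by these regions and was not checked here.

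The mm9 (NCBIM37) sequence of the members was searched on both strands for the kB consensus, the 10-base sequence to which NF-kappaB dimers bind. It was present in 14 of 73 member regions (19.2%), in 10.2% of all 65893 regions with sequence and in 11.4% of regions of the same width to within 10%. All 7 start-site regions held it, against 30.7% of promoter regions of the same width. The stretches are shown because they are where products of these genes could bind the genes themselves, and because the Rela start-site region, the Nfkbia start-site region and the upstream Nfkbia region were each called in at least 1 comparison. Each is written on the plus strand of mm9, with matches in capitals (overlapping matches run together).
Nfkb1 (chr3:135353904-135354053, intron): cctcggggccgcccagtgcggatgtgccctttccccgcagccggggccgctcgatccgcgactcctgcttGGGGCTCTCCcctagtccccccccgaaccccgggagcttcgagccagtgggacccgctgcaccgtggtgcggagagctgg
Nfkb2 (chr19:46379118-46379226, just upstream of the start): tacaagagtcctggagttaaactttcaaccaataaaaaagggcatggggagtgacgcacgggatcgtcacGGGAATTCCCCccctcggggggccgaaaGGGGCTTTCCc
Rel (chr11:23670981-23671130, just upstream of the start): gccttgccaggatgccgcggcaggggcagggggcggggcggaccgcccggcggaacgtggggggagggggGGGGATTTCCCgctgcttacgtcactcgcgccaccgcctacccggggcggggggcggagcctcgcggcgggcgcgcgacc
Rela (chr19:5637842-5637977, intron): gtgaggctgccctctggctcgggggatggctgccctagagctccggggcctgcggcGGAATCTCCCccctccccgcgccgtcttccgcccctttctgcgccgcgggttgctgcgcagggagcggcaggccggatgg
Relb (chr7:20214788-20214881, just upstream of the start): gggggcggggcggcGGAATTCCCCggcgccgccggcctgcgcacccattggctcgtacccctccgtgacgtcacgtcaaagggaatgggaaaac
Nfkbia (chr12:56592766-56592858, intron): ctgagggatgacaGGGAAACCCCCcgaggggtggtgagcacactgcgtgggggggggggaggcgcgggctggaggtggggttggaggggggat
Nfkbia (chr12:56596212-56596361, upstream region that was less accessible in GCB): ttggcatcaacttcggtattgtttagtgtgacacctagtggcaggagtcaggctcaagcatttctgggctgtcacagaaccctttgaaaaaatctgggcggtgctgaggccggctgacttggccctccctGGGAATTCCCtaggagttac
Tnfaip3 (chr10:18735217-18735298, intron): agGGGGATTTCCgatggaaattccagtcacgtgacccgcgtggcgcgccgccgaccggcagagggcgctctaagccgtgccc
Matches were counted on each strand, so that a site matching on both, such as GGGAATTCCC, counts as 2. Counted in this way, the Nfkb2 stretch held 4 matches, and the start-site regions of Nfkb2 and Nfkbia held 7 each, the others 1 to 4. The core GGAAGT of PU.1 sites was in 46.6% of member regions against 43.2% of all regions, and the core CAGCTG of E2A sites in 35.6% against 32.4%. A match is a string of letters in the genome and not evidence of binding.

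Between nB and BMPC of C mice, calls at the inhibitor genes were mainly rises and calls at the subunit genes mainly falls, while 15 of 29 inhibitor regions and 24 of 44 subunit regions were not called. At the inhibitors, 13 of 29 regions rose and 1 fell, with a median log2 fold change of 0.42. At the subunits, 2 of 44 rose and 18 fell, with a median of -0.35. The falls were 9 at Nfkb1, 8 at Rel and 1 at Relb, with 0 at Nfkb2 and Rela. Over all 66177 regions, 18.0% were called more accessible and 20.1% less accessible, with a median log2 fold change of 0.03. A region was called when limma gave an adjusted p of at most 0.01 over all regions and a change of at least 2-fold. None of the 7 start-site regions was called in this comparison, in which 11.2% of all promoter regions rose and 6.41% fell. Of the other 66 regions 34 were called. The median distance was 40.3 kb for the 19 that fell, 25.1 kb for the 15 that rose and 17.9 kb for those not called, start-site regions included. Distances of called regions at other genes were not taken. The kB consensus was in 1 of the 19, in 3 of the 15, and in 10 of the 39 regions that were not called, among which were the 7 start-site regions.

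**Figure D1:**
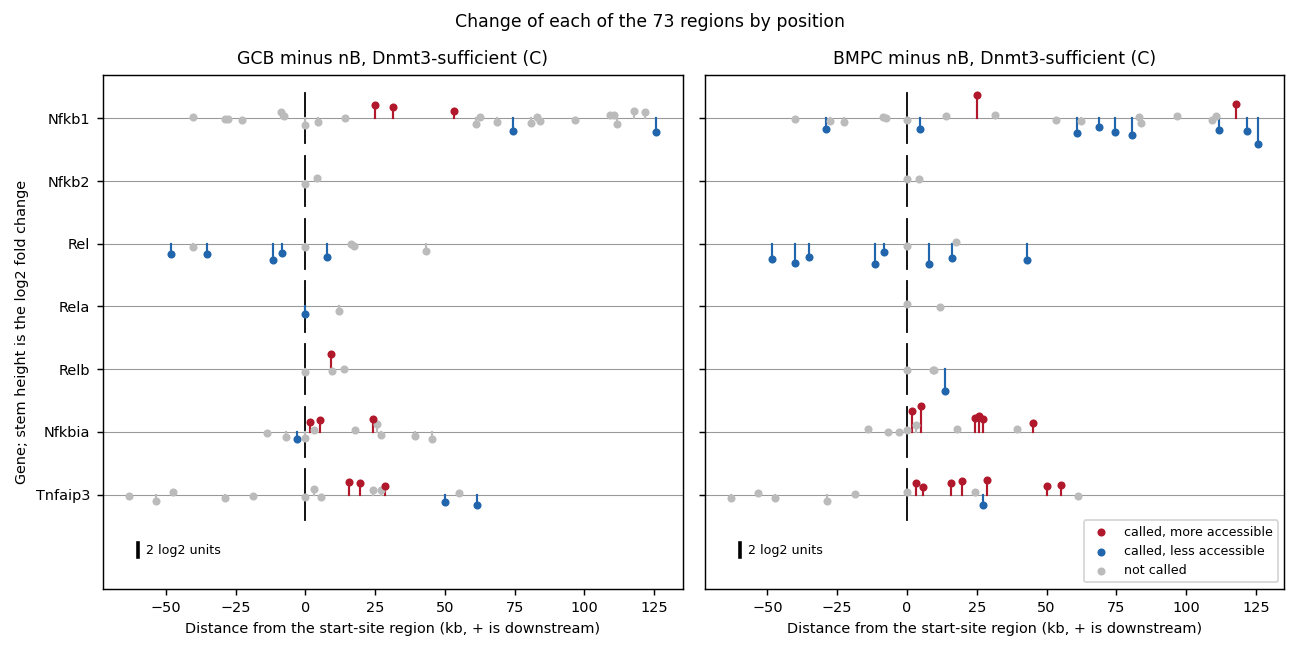
Change in accessibility of each of the 73 regions in Dnmt3-sufficient cells, GCB minus nB on the left and BMPC minus nB on the right. Each stem stands at the distance of the region (kb) from the start-site region of its gene, its height is the fitted log2 fold change on the scale drawn, and color shows whether it was called; in BMPC the Rel row has 8 called falls, and the Nfkbia and Tnfaip3 rows together have 13 called rises.

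In the step from nB to GCB in C mice, which shares its nB libraries with the comparison above, calls in both directions were found in either role. Of the subunit regions 4 rose and 8 fell, and of the inhibitor regions 6 rose and 3 fell, against 14.2% and 8.47% of all regions. Without GCB C replicate 1 the subunit rises went from 4 to 1, and without GCB C replicate 2 the subunits had 2 rises and the inhibitors 4 rises and 4 falls. Of the 73 members, 7 rose in both steps, 7 fell in both and 1, at Tnfaip3, fell in GCB and rose in BMPC. The same overlap was not counted over all regions. Between GCB and BMPC the counts were 2 up and 13 down at the subunits and 12 up and 1 down at the inhibitors, against 11.3% and 19.1% of all regions. Without GCB C replicate 1 the inhibitor rises went from 12 to 7, and with a pseudocount of 5 RPPM they were 7 and the subunit falls 4. Under quantile normalization the all-region calls from nB to GCB moved from 9427 up and 5602 down to 7418 and 7053, with the median log2 fold change of all regions going from 0.05 to -0.06, and the member calls moved to 7 up and 11 down. From GCB to BMPC the all-region calls moved from 7474 up and 12636 down to 9585 and 9871, the all-region median from -0.06 to 0.09 and the member calls from 14 up and 14 down to 16 and 10.

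The accessibility of all regions of a gene was also summed. For Nfkbia the sum was 206 ± 10.8 RPPM in nB (SD, n = 3), 139 ± 12.3 in GCB (n = 2) and 420 ± 13.8 in BMPC (n = 3) of C mice. For Tnfaip3 it was 265 ± 19.4, 278 ± 6.30 and 328 ± 6.28 RPPM in the same order. Rel went the other way, from 298 ± 17.6 in nB to 192 ± 2.15 in GCB and 173 ± 8.11 in BMPC. Nfkb1 declined from 402 ± 14.5 to 355 ± 19.8 and 318 ± 16.9 RPPM, and Relb from 173 ± 8.05 to 147 ± 27.4 and 136 ± 4.62. The other two subunits were lowest in GCB and highest in BMPC, Nfkb2 at 135 ± 8.68, 112 ± 5.64 and 162 ± 6.32 RPPM and Rela at 104 ± 10.5, 55.7 ± 2.65 and 120 ± 2.08. These sums depend on how many regions a locus has and are given for comparison within a gene only.

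The start-site regions were accessible in every library and were lowest in GCB. At Rela (chr19:5636661-5638009), which encodes p65, the partner of p50 in the most common dimer, values were 70.6, 56.5 and 61.2 RPPM in the 3 nB C libraries, 27.7 and 31.4 in GCB C and 76.5, 80.6 and 82.5 in BMPC C. The GCB libraries were below all others. This was the 1 start-site region called in GCB against nB in C (log2 fold change -1.06, SE 0.14, adjusted p = 4.7e-07), and it was also called from GCB to BMPC (1.41, SE 0.14, adjusted p = 2.0e-09). The fall fell short of 2-fold without nB C replicate 1 (-0.97), without GCB C replicate 1 (-0.97) and under quantile normalization (-0.85). Nfkbia (chr12:56592604-56593967) had a like course, with 102, 98.2 and 105 RPPM in nB C, 45.7 and 60.4 in GCB C and 109, 122 and 128 in BMPC C. Its fall in GCB was just under 2-fold in C (-0.93, SE 0.11, adjusted p = 1.7e-07) past that limit without GCB C replicate 2 (-1.13) and past it in KO (-1.21, SE 0.11, adjusted p = 5.7e-10), and the rise from GCB to BMPC was called in C (1.17, SE 0.11, adjusted p = 1.9e-09). The Nfkb1 start-site region (chr3:135353443-135354921) also stopped just short of the limit in C, from 79.9 ± 9.39 in nB to 39.6 ± 3.05 RPPM in GCB (-0.99, SE 0.13, adjusted p = 3.7e-07), and was past it without nB C replicate 3 (-1.09) or without GCB C replicate 1 (-1.06), with a pseudocount of 0.1 RPPM, under TMM scaling, and in both edgeR tests and DESeq2.

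The other 4 start-site regions moved less. For Rel (chr11:23669592-23671919) the C means were 171 ± 6.32 RPPM in nB, 128 ± 4.11 in GCB and 141 ± 7.87 in BMPC. Nfkb2 (chr19:46378470-46380527) had 123 ± 7.19, 96.3 ± 5.57 and 147 ± 6.03, and Relb (chr7:20213574-20215153) 139 ± 8.60, 108 ± 22.4 and 124 ± 2.73. At Tnfaip3 (chr10:18734285-18735777) they were 82.6 ± 4.98, 65.5 ± 7.41 and 101 ± 3.43 RPPM. None of these 4 was called in any of the 9 comparisons. The median log2 fold change from nB to GCB in C was -0.41 over the 7 start-site regions and -0.18 over all 14332 promoter regions, and the lower depth and higher mitochondrial share of the GCB libraries moved with it; their part was not tested.

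**Figure D2:**
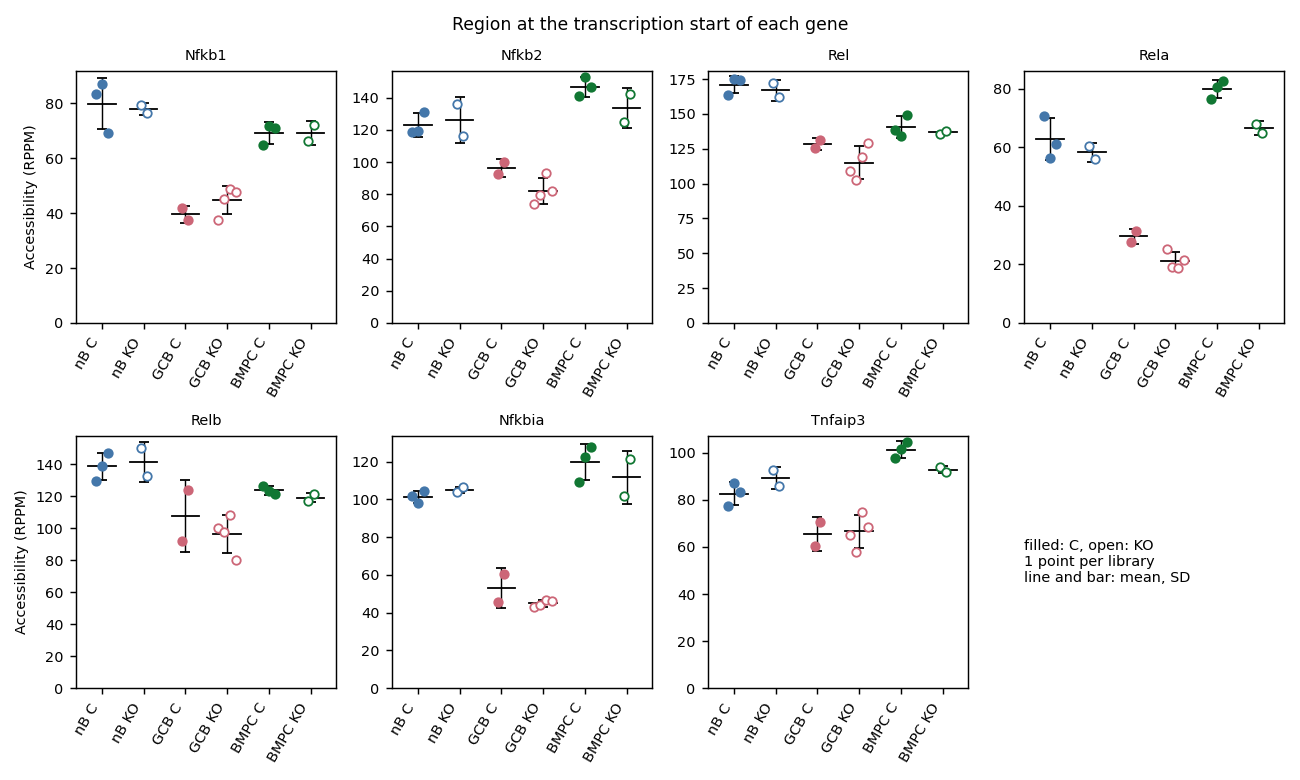
Accessibility (RPPM) of the region at the transcription start of each of the 7 genes, 1 point per library, filled for C and open for KO, with the mean and SD of each group. In every panel the GCB groups have the lowest means, and at Rela the 6 GCB libraries, at 18.9 to 31.4 RPPM, are below all nB and BMPC libraries.

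Rel encodes c-Rel, a subunit made mainly in lymphoid cells. It lost accessibility at 8 of its 10 regions between nB and BMPC in C, and none rose. Among the 8 were the regions with Papolg and Pus10 as the nearest transcript. The largest fall was 11.5 kb upstream of the start-site region (chr11:23682039-23682436), outside genes, where the nB C libraries had 11.0, 13.2 and 11.2 RPPM, GCB C 2.2 and 0.937, and BMPC C 0.780, 0.730 and 0.467. In C the 3 cell types did not overlap, but the BMPC C values rest on 3 to 6 reads per library and the lower GCB C value on 2 reads, and in GCB KO the pools at 0 and 0.438 RPPM were below every BMPC library. The fitted change was -2.35 in GCB (SE 0.44, adjusted p = 8.2e-05) and -2.95 in BMPC (SE 0.39, adjusted p = 2.7e-07), and it was -2.60 and -2.95 in KO. An intronic region 16.3 kb downstream (chr11:23654107-23654826) stayed open in GCB, with 22.7, 34.7 and 33.1 RPPM in nB C, 30.3 and 27.2 in GCB C and 6.5, 5.29 and 7.94 in BMPC C. It was therefore called in BMPC against nB (-2.03, SE 0.20, adjusted p = 1.5e-09) and against GCB (-1.99, SE 0.22), and not in GCB against nB (-0.04, SE 0.22). Of the 8 regions that closed by BMPC, 5 had already been called in GCB.

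Nfkb1, which encodes p105 and p50, had 9 regions that fell and 2 that rose between nB and BMPC in C. The largest fall lay 126 kb downstream, in an intron annotated to the neighboring gene Manba (chr3:135228151-135228709). The nB C libraries had 28.0, 19.6 and 27.2 RPPM, the GCB C libraries 6.16 and 4.68, and the BMPC C libraries 1.43, 0.912 and 0.779. The fall was stepwise, at -2.01 in GCB (SE 0.29, adjusted p = 3.4e-06) and -3.66 in BMPC (SE 0.26, adjusted p = 2.8e-12), or 24.0-fold between the nB and BMPC means. The largest rise was inside Nfkb1, in an intron 25.1 kb from the start-site region (chr3:135328615-135329559), where values were 1.22, 2.26 and 1.67 RPPM in nB C, 12.8 and 6.56 in GCB C and 28.9, 27.6 and 24.1 in BMPC C. All 3 cell types were separate, with changes of 1.93 in GCB (SE 0.31, adjusted p = 1.3e-05) and 3.37 in BMPC (SE 0.28, adjusted p = 4.2e-11). Other introns of the gene opened in GCB and not in BMPC, such as one 53.4 kb from the start-site region with 2.17 ± 0.763 RPPM in nB, 5.46 ± 0.885 in GCB and 1.66 ± 0.328 in BMPC of C mice.

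At Relb, whose product pairs with p52 in the noncanonical pathway, 1 of 4 regions changed between nB and BMPC. This region, 13.7 kb downstream over exons and introns of the gene (chr7:20200306-20200991), had 21.2, 21.9 and 23.6 RPPM in nB C, 22 and 23 in GCB C and 3.12, 1.46 and 0.934 in BMPC C. Naive and germinal center libraries overlapped, and all plasma cell libraries were lower (-3.11 against nB, SE 0.26, adjusted p = 5.1e-11). A narrow region of 179 bases at an internal start of Relb (chr7:20205065-20205243) was called more accessible in GCB C, from 0.844 ± 0.431 to 7.28 ± 0.966 RPPM (2.19, SE 0.58, adjusted p = 0.0031). In GCB KO it ranged from 0 to 7.0 RPPM and was not called against nB (1.09, SE 0.55, adjusted p = 0.10). The call in C was lost without nB C replicate 3 (1.99) and without either GCB C pool (2.31 and 2.07). No region of Nfkb2 was called in any comparison, and the second Rela region, 11.9 kb downstream, was not called either.

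**Figure D3:**
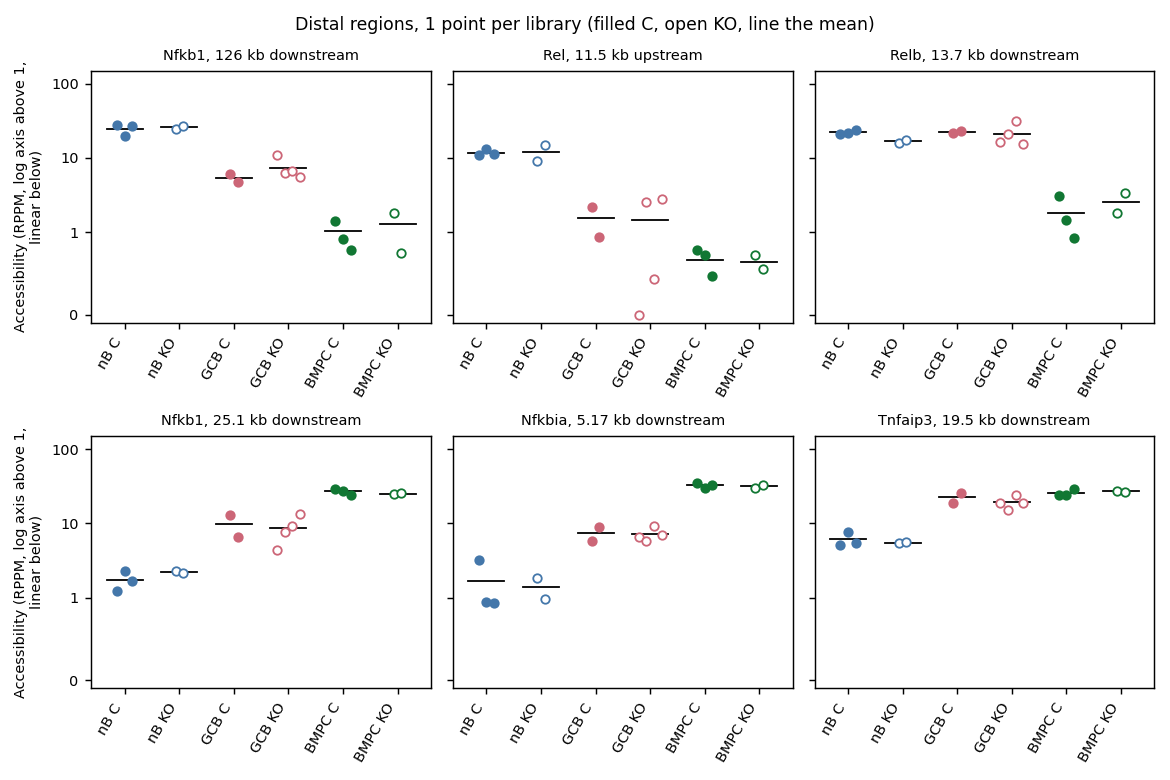
Accessibility (RPPM, logarithmic above 1 and linear below) of 6 distal regions, 1 point per library, filled for C and open for KO, with the group mean as a line. The upper row shows regions of Nfkb1, Rel and Relb that fell to means of 0.644 to 2.59 RPPM in BMPC, and the lower row regions of Nfkb1, Nfkbia and Tnfaip3 that rose to means of 25.0 to 32.4 RPPM.

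All 6 called regions of Nfkbia rose between nB and BMPC in C, and all 6 lay within or downstream of the gene, as did most of its 13 regions. The largest change was 5.17 kb downstream (chr12:56587832-56588395), from 3.17, 0.942 and 0.931 RPPM in nB C to 5.72 and 8.90 in GCB C and 34.6, 29.6 and 33.2 in BMPC C. The cell types were separate, with a 19.3-fold higher mean in BMPC than in nB (3.74, SE 0.27, adjusted p = 2.8e-12). A region over an exon and intron of the gene 1.70 kb from the start-site region (chr12:56591454-56591710) followed the same order, at 1.83 ± 0.990, 6.88 ± 3.51 and 20.2 ± 1.61 RPPM. The most accessible region was 27.1 kb downstream (chr12:56565375-56566930), and it had 31.9, 22.6 and 30.5 RPPM in nB C, 19.8 and 20.1 in GCB C and 102, 112 and 107 in BMPC C. Here GCB was lowest, and the rise was 1.90 against nB (SE 0.13, adjusted p = 1.4e-12) and 2.37 against GCB (SE 0.15, adjusted p = 4.3e-13). A region 45.3 kb downstream (chr12:56547516-56548453), with Psma6 as the nearest transcript, had the same course, with 31.3 ± 1.56, 15.4 ± 1.88 and 73.1 ± 3.78 RPPM. Another course was seen 24.4 kb downstream (chr12:56568770-56569009), where GCB at 5.89 ± 0.379 and BMPC at 6.38 ± 0.982 RPPM did not differ by the test and both were above nB at 0.868 ± 0.119. The region 2.96 kb upstream whose sequence holds the kB consensus (chr12:56596137-56596361) was called lower in GCB C, at 9.26, 10.9 and 8.93 RPPM in nB C, 4.84 and 3.28 in GCB C and 10.8, 11.7 and 7.94 in BMPC C (-1.09 in GCB, SE 0.27, adjusted p = 0.0018), and in KO the change was just under 2-fold (-0.97, SE 0.26, adjusted p = 0.0028). The call in C was lost without nB C replicate 2 (-1.01) and without GCB C replicate 2 (-0.87).

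Tnfaip3 gained at 7 regions and lost at 1 between nB and BMPC in C, and all 8 lay downstream of its start, as did most of its 16 regions. The region 19.5 kb downstream (chr10:18715153-18715820) opened by GCB, with 5.12, 7.72 and 5.40 RPPM in nB C, 18.9 and 25.8 in GCB C and 23.7, 23.7 and 28.8 in BMPC C. GCB and BMPC overlapped and both were above nB (1.72 in GCB, SE 0.21, adjusted p = 2.5e-07; 1.91 in BMPC, SE 0.19, adjusted p = 1.7e-09). Its neighbor at 15.7 kb (chr10:18719129-18719577) had the largest called rise in GCB, from 2.95 ± 0.542 to 12.2 ± 2.67 RPPM (1.73, SE 0.27, adjusted p = 6.9e-06). The largest rise in BMPC was at 28.7 kb (chr10:18706232-18706426), a region that was weak throughout, from 1 or 2 reads per library in nB C to 25, 32 and 25 reads in BMPC C (2.03, SE 0.31, adjusted p = 2.6e-06). Beside it, at 27.3 kb (chr10:18707500-18708018), accessibility went the opposite way. There the nB C libraries had 5.85, 12.8 and 13.8 RPPM, GCB C 18.0 and 16.4 and BMPC C 3.25, 2.37 and 3.74 (-1.45 against nB, SE 0.25, adjusted p = 1.3e-05). A region 50.2 kb downstream (chr10:18684530-18685212) dipped in GCB and rose in BMPC, at 8.95 ± 0.296, 3.87 ± 0.49 and 21.8 ± 1.26 RPPM. At 61.4 kb (chr10:18673286-18673914) the fall in GCB (-1.57, SE 0.26, adjusted p = 2.2e-05) was not kept in BMPC (-0.25, SE 0.23).

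Of 43 further genes of the pathway, 34 had an accessible region at a transcription start, and these too were mostly not called. From nB to GCB in C, 0 rose and 5 fell, with a median log2 fold change of -0.59 against -0.18 for all promoter regions, of which 8.88% rose and 6.99% fell. This count was 2 with a pseudocount of 5 RPPM or without GCB C replicate 1, and 4 to 6 under the other alternatives. The largest falls were at Traf3, an adaptor that keeps the kinase NIK low (70.7 ± 4.12 to 28.2 ± 1.90 RPPM, -1.30, SE 0.12, limma adjusted p = 1.4e-09), at Nfkbid, which encodes the nuclear IkB protein IkBNS (84.5 ± 2.22 to 34.7 ± 1.34, -1.26, SE 0.12, adjusted p = 3.8e-09), and at Bcl3, a nuclear partner of p50 and p52 (24.0 ± 2.26 to 10.5 ± 2.39, -1.13, SE 0.27, adjusted p = 0.0014). Traf1 and Tab1 were the other two. From nB to BMPC in C, 1 rose and 0 fell: Ikbke, which encodes an IKK-related kinase, went from 9.27 ± 2.10 to 21.9 ± 0.634 RPPM (1.17, SE 0.18, adjusted p = 2.4e-06). Of all promoter regions 11.2% rose and 6.41% fell, and the call was lost with a pseudocount of 5 RPPM. By group, 14 kinase and adaptor genes had that 1 rise, and the 5 TRAF and IAP genes, 7 other inhibitor genes and 8 ubiquitin-editing genes had 0 calls in BMPC.

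The member with the widest range across the 3 C means, the Nfkbia region 5.17 kb downstream, was compared with all regions of other genes. The closest courses over the 16 libraries were at Dusp22 (Pearson r = 0.987), Gtf2i (r = 0.987) and Tacr2 (r = 0.986). These r values describe a likeness across libraries that fall into 3 cell types and carry no test. At the Tacr2 region the means were 0.592 RPPM in nB C, 5.71 in GCB C and 55.2 in BMPC C.

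Most of the members called between nB and BMPC in C were also called in KO. From nB to BMPC in KO, 12 inhibitor regions rose and 2 fell and 3 subunit regions rose and 14 fell, against 18.4% and 16.9% of all regions. Of the 34 members called in C and the 31 called in KO, 29 were called in both in the same direction, and 0 were called in opposite directions. The share of all regions called in both was not counted, so this overlap cannot be set against it. From nB to GCB in KO, 10 members rose and 12 fell, against 18.4% and 7.84%, and from GCB to BMPC 14 rose and 7 fell, against 12.1% and 19.9%. Quantile normalization gave 6 up and 14 down and 18 up and 6 down for these 2 steps, while the all-region calls went from 12205 up and 5188 down to 7679 and 7477 and from 8013 up and 13138 down to 10270 and 10345. None of the 73 members was called for a difference between genotypes in any of these 3 steps in the limma interaction test, and 3 had an unadjusted p under 0.05 for nB to BMPC (5.24% of all regions), 7 for GCB to BMPC (8.32%) and 2 for nB to GCB (6.21%).

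KO was compared with C directly in each cell type. In nB, 0 members were called by limma, as were 0% of all regions, and 0 had an unadjusted p under 0.05. In GCB 0 were called, against 0.0317% of all regions, with 7 of 73 at an unadjusted p under 0.05, against 11.8% of all regions. In BMPC 0 were called, against 0.104%, and 14 of 73 had an unadjusted p under 0.05, against 9.55%. Of these 14, 11 were Nfkb1 regions. All Nfkb1 regions in BMPC were read in the same 2 KO and 3 C libraries. They are not independent, so their number does not replicate the genotype. Of the 26 regions, 23 had a higher mean in BMPC KO than in BMPC C, against 53.5% of all regions. In nB 19 of 26 had a higher mean in KO, against 46.6%. In GCB 15 of 26 had a higher mean in KO, against 37501 of all 66177 regions. At 15 of the 26 both BMPC KO libraries were above all 3 BMPC C libraries, against 20.0% of all regions in the series. In nB this held for 4 of 26, against 9.38%, and in GCB for 1 of 26, against 7.47%. The median log2 difference over the 26 regions was 0.42 in BMPC, 0.07 in nB and -0.01 in GCB, while over all regions it was 0.03, -0.01 and 0.03. Over the 37 regions of other genes within 500 kb on either side it was 0.17 in BMPC, 0.02 in nB and 0.01 in GCB. Summed, Nfkb1 had 395 ± 10.2 RPPM in BMPC KO (n = 2) and 318 ± 16.9 in BMPC C (n = 3), with no overlap. The Rel sums did not overlap either (186 ± 6.96 in KO and 173 ± 8.11 in C). Nor did those of Rela, which were lower in KO (104 ± 2.48 and 120 ± 2.08). The sums of the remaining member genes overlapped. Genes outside the members were not summed, so no share of all genes stands beside this.

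An intron of Nfkb1 74.4 kb from the start-site region (chr3:135279477-135280164) had the smallest p of all members. It was open in nB, at 16.1, 14.7 and 12.3 RPPM in C and 17.9 and 14.2 in KO. GCB C had 3.08 and 3.28, and GCB KO 7.71, 5.09, 7.45 and 10.5. BMPC C had 3.38, 2.55 and 2.96, and BMPC KO 9.23 and 9.33. Every KO library was thus above every C library in GCB and in BMPC, which held for 7.47% and 20.0% of all regions, and the genotypes overlapped in nB. The region was picked for its p in BMPC, so its separation there follows from the choice. The share of all regions separated in both cell types was not counted. In BMPC the difference was 3.13-fold (1.38, SE 0.26) and missed the limit narrowly (limma adjusted p = 0.0104), and in GCB it was 1.02 (SE 0.25, adjusted p = 0.076). The fall from nB to BMPC was called in C (-1.95, SE 0.23, adjusted p = 4.9e-08) and not in KO (-0.72, SE 0.29, adjusted p = 0.038), and the test of that difference was not passed (1.23, SE 0.37, adjusted p = 0.49).

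A second Nfkb1 intron at 80.7 kb (chr3:135273237-135273656), close to an internal start, had 1.30, 1.64 and 0.779 RPPM in BMPC C against 3.89 and 5.6 in BMPC KO. Its difference was 1.36 (SE 0.32, limma adjusted p = 0.035), and in GCB it was -0.12 (SE 0.30). On read counts, edgeR's likelihood ratio test called both introns in BMPC (adjusted p = 4.2e-07 and 3.3e-05), as 2 of 73 members against 2.01% of all regions called more accessible by that test. The edgeR quasi-likelihood test and DESeq2 called the same 2 regions and no other member (adjusted p = 3.3e-05 and 0.000106 for the first, 0.000489 and 0.00196 for the second), where these tests called 1.45% and 0.610% of all regions more accessible. Limma at an adjusted p of up to 0.05 called both as well, with 0.542% of all regions. With each BMPC library left out in turn, the limma difference was 1.30 to 1.45 for the first (adjusted p = 0.0128 to 0.231) and 1.14 to 1.58 for the second (adjusted p = 0.0505 to 0.564). The start-site region of Nfkb1 had the same mean in both BMPC groups, 69.2 RPPM (log2 difference -0.00, SE 0.13). At the other genes the smallest p-values in BMPC belonged to regions with adjusted p between 0.20 and 0.84, among them Rel 43.1 kb downstream (0.936 ± 0.316 in C and 2.70 ± 0.128 RPPM in KO) the Rela start-site region (79.9 ± 3.10 and 66.5 ± 2.39), Nfkbia 17.9 kb downstream (1.59 ± 0.930 and 4.24 ± 0.71) and Tnfaip3 55.2 kb downstream (5.2 ± 1.99 and 8.84 ± 0.893).

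**Figure D4:**
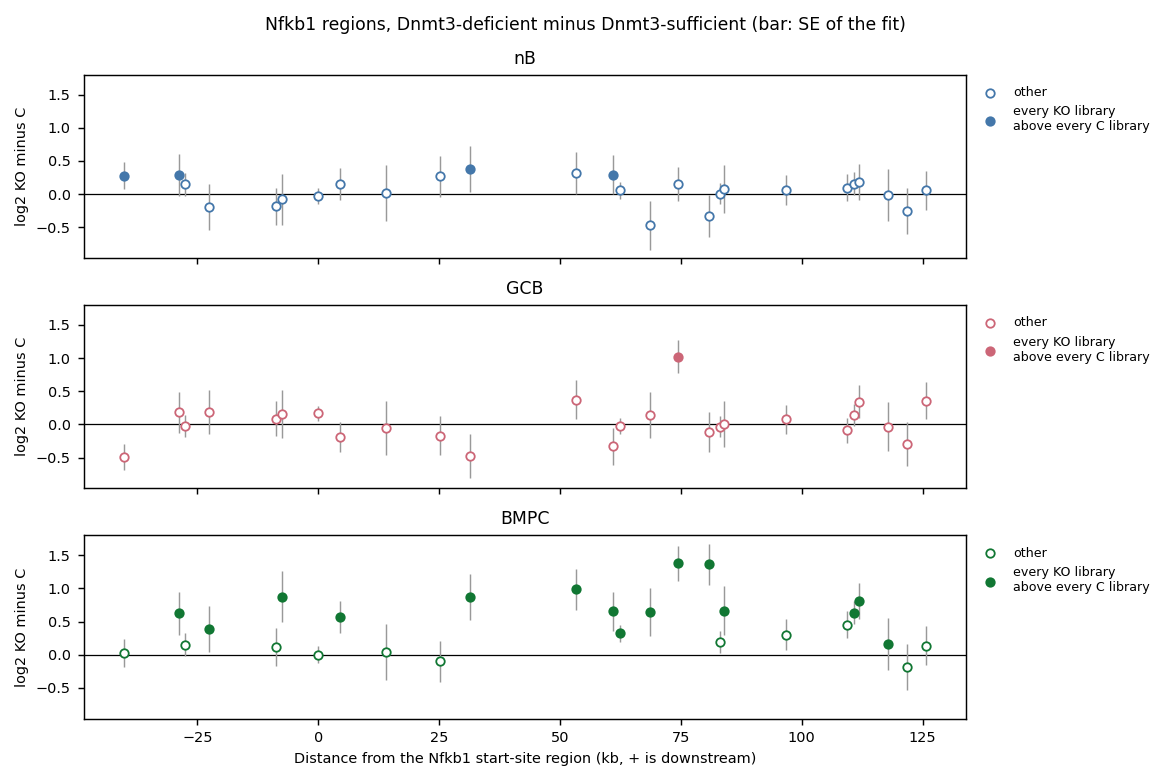
Log2 difference in accessibility between KO and C (points, with the SE of the fit) at the 26 Nfkb1 regions by distance from the start-site region (kb), for nB, GCB and BMPC. Filled points are regions where every KO library is above every C library: 4 in nB, 1 in GCB and 15 in BMPC, where the largest differences are 1.38 and 1.36. Of all regions in the series, 9.38% in nB, 7.47% in GCB and 20.0% in BMPC are of this kind.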

How the data were processed

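Per the labels and the study's methods, the authors trimmed reads with FastQC, aligned them to mm9 with Bowtie, called peaks with MACS2, merged them over samples into 1 set of regions, and deposited for each region and library an RPM value scaled to each library's total within peaks instead of its mapped reads, named RPPM. The submitters' processing notes name Bowtie 1.1.1, MACS2 2.1.0.20140616, Picard 1.127 and edgeR 3.12.1; for Bowtie and MACS2 the methods give other versions, and which were used is unknown. The deposited fold changes and p-values of the authors' own comparisons were not used. Of 17 samples, 1 BMPC KO sample had no deposited values and was not analysed here. The authors removed 1 sample for its share of reads in peaks and do not say which.

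Groups were taken from the labels. Values were fitted as log2(RPPM + 1) with limma 3.58.1 (R 4.3.3) on 6 group means and 16 libraries with a mean-variance trend. The fold changes are on this scale, which understates those of low regions. P-values were two-sided, adjusted by the Benjamini-Hochberg method over all 66177 regions, and a call required a value of 0.01 or less together with a 2-fold or larger change. Whole read counts were recovered from the deposited RPPM (100% of 1058832 values whole to within 0.001 read) and tested with edgeR 4.0.16 and DESeq2 1.42.0 as alternatives. The fits were checked on simulated data. Other alternatives were pseudocounts of 0.1 and 5 RPPM, a mean of at least 1 RPPM, TMM and quantile scaling, no trend, the compared groups only, an adjusted p of at most 0.05, and each library left out in turn. Floors of 3 reads cover counting error only.

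Distances run between the middle of a region and that of the start-site region of its gene. Sequence came from NCBIM37 (mm9) with GENCODE vM1. Python 3.11.15 was used for counts and figures.

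The members and gene lists were chosen with earlier results of these data known. Regions were named by rule: per gene the start-site region, the largest called rise and fall in C from nB to GCB and to BMPC, and the smallest p of KO against C in BMPC; and up to 3 promoters of the pathway list by the same changes. The other regions described singly were chosen after their values were seen. Pools of GCB share names between genotypes (F2 and M1), and the check of whether these pair them is given with the alternatives. A marker gene and the locus that drives Cre are not reported here.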

Additional observations from a re-analysis of the deposited data

Results flagged for a closer look

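Of 23 named regions examined in the 4 GCB KO pools, 2 had a pool apart from the rest by Dixon's test, for which chance flags about 1 in 20 groups. The Nfkbia region 17.9 kb downstream had 3.18 RPPM in GCB KO replicate 2, against 2.1 to 2.2 in the other pools. In order of replicate, these values rest on 2, 5, 5 and 3 reads. The Tnfaip3 region 27.3 kb downstream had 13.2 RPPM in GCB KO replicate 1, below the others, which were all at 14. Its reads were 12, 22, 32 and 20 in the same order, so counting error is large beside such gaps. Groups of 2 and 3 libraries were not examined in this way.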

How the results depend on the processing

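None of the 36 single-region fold changes changed sign under the alternatives run. With a pseudocount of 5 RPPM, fewer members were called: 10 for GCB against nB in C (21 at 1 RPPM), 14 for BMPC against GCB in C (28), 6 for GCB against nB in KO (22), 17 for BMPC against nB in KO (31) and 12 for BMPC against GCB in KO (21). For BMPC against nB in C it gave 8 rises and 0 falls at the inhibitors (13 and 1 at 1 RPPM). At the subunits it gave 1 rise and 15 falls (2 and 18). This setting shrinks the fold changes of low regions by construction. For KO against C in BMPC, 2 members were called with an adjusted p of at most 0.05 and by edgeR's quasi-likelihood and likelihood ratio tests and DESeq2, against 0 by limma at 0.01. In the order of these 4 settings, 0.542%, 1.45%, 2.01% and 0.610% of all regions were called more accessible. Leaving out each library in turn gave 16 to 21 calls for GCB against nB in C, 33 to 34 for BMPC against nB in C, 20 to 29 for BMPC against GCB in C, 14 to 23 for GCB against nB in KO (14 without nB KO replicate 1), 22 to 28 for BMPC against nB in KO, 15 to 21 for BMPC against GCB in KO, and 0 for KO against C in each cell type. From nB to BMPC in C, the inhibitor regions had 8 to 14 rises and 0 to 2 falls and the subunit regions 1 to 2 rises and 15 to 18 falls over the 18 settings. From nB to GCB in C the inhibitors had 2 to 7 rises and 1 to 5 falls and the subunits 1 to 5 and 5 to 10, and from GCB to BMPC in C the inhibitors had 7 to 13 and 1 to 2 and the subunits 1 to 3 and 4 to 14. In KO from nB to BMPC, 15 rises and 16 falls of all members became 10 and 7 with a pseudocount of 5 RPPM, 12 and 10 without nB KO replicate 2 and 17 and 16 at an adjusted p of at most 0.05.

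With the pool name as a replicate block on the 4 GCB libraries of pools F2 and M1, 0 members were called for KO against C, as without it. The correlation of the deviations of same-named pools was 0.0363 for F2 and 0.0638 for M1. With 2 GCB C libraries these values are not independent of each other. They cannot say whether same-named pools share more than a name.

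With 2 or 3 libraries in most groups and at most 2280954 reads in GCB, small differences in GCB and between genotypes were not detectable at this depth. Of the 36 single-region results, leaving out a library left 184 values on the same side of the limits, moved 3 past them and 7 short of them, and the other settings gave 378, 9 and 9.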
